A study of Mus musculus with 115 samples.

Results

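Bach2, Satb1, Tcf7, Dapl1 and Id3 are genes used by naive T cells, the mature T cells that have not yet met their antigen. They were chosen by symbol, with earlier results of these data known, and all 5 were found once among the 37315 genes of the gene table. RNA of whole blood, hairless abdominal skin, liver and a brain hemisphere of male C57BL/6J mice was sequenced at 5 ages, 2, 9, 15, 24 and 30 months. All animals were of this inbred strain and sex, with no treatment or altered allele given in the labels. Blood was drawn from the heart into a stabilising solution and its globin transcripts were depleted, and 24 blood libraries were used, 5 at each age except 4 at 24 months. Skin had 25 libraries with 5 at each age, liver had 24 with 4 at 2 months and 5 at the others, and brain had 39 with 7 at 24 months and 8 at the others. The comparison called old against young sets the mean of 24 and 30 months against 2 months.

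Naive T cells leave the thymus and circulate between blood and lymph nodes, held in a resting state by a group of transcription factors. Tcf7 encodes TCF-1, an HMG-box factor of the TCF/LEF family that is switched on when cells commit to the T lineage and is kept in naive and memory T cells. Satb1 encodes a chromatin organiser with high levels in thymocytes. Bach2 encodes a repressor of the basic leucine zipper family that restrains effector and plasma cell programmes, and it is used by T cells and by B cells. Id3 encodes a protein that binds E proteins (basic helix-loop-helix factors) and keeps them off DNA, also in both kinds of lymphocyte. Dapl1 encodes a small protein related to the death-associated protein Dap, known from differentiating epithelia and from resting T cells. With age the thymus shrinks, and memory cells take a larger share of the T cells of mice.

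Reads assigned to genes numbered 28841527 to 35296480 per blood library, 27010148 to 40648322 in skin, 20190745 to 46592449 in liver and 28141342 to 50375815 in brain. Levels are given as CPM, counts per 1000000 assigned reads after TMM scaling of library sizes within a tissue. Blood held the markers of its cells. All 24 genes of the T cell list (pan T cell) and all 18 of the B cell list had reads, and at 23 and 18 of them the median over libraries was 1 CPM or more. In brain, 5 pairs of a 9-month and a 15-month library nearly coincided, at 1.20 to 2.65 for chi-square per degree of freedom, with 4.14 for the next closest pair.

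All 5 genes fell in old blood, and in the TMM-scaled CPM of each of them all 9 old libraries lay below all 5 young libraries. The share of all genes tested with such a separation was not counted. Without TMM scaling, in the levels per length given below, only Dapl1 kept this separation. Old and young libraries of Bach2, Satb1, Tcf7 and Id3 overlapped there. Over all 14730 genes tested, 8.91% were called lower in old blood, at an adjusted p under 0.05 of edgeR's quasi-likelihood test. The median log2 fold change was -1.20 over the 5 genes and -0.0079 over all genes tested. As the 5 genes were chosen with earlier results known, this contrast is a description. Changes are given as log2 fold change ± SE from the fit over 24 blood libraries, with p-values adjusted over all genes tested. In blood, fewer cells of a type and less RNA per cell cannot be told apart.

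Dapl1 (ENSMUSG00000026989, chromosome 2, 59484653 to 59505020 on the plus strand, GRCm38) changed most. At 2 months its CPM was 24.4, 30.3, 27.8, 24.2 and 27.9 in the 5 libraries. At 9 months the libraries had 11.2, 20.9, 4.36, 8.28 and 4.31 CPM, and at 15 months 16.6, 2.19, 7.69, 6.30 and 2.25 CPM. At 24 months they had 2.95, 4.31, 0.759 and 5.22 CPM, and at 30 months 2.64, 7.74, 3.44, 4.58 and 0.578 CPM. The 9- and 15-month libraries spread widely between the young and the old ones, and the highest of all later libraries, at 20.9, stayed under the lowest young library. Dapl1 averaged 3.58 ± 2.23 CPM in old blood and 26.9 ± 2.61 CPM in young blood (SD, n = 9 and 5). It fell by 2.92 ± 0.48 on the log2 scale, 7.59-fold lower in old blood (edgeR, adjusted p = 0.000198). Among the 14730 genes tested it ranked 17 from the lowest fold change.

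Tcf7 (ENSMUSG00000000782, chromosome 11, 52252371 to 52283014 on the minus strand) had 62.1, 64.2, 54.6, 90.0 and 70.7 CPM at 2 months. It ranged between 21.4 and 63.4 CPM at 9 months and between 13.98 and 52.3 CPM at 15 months. The libraries had 30.8, 17.5, 5.02 and 32.4 CPM at 24 months and 22.3, 18.5, 50.5, 43.8 and 13.2 CPM at 30 months. The highest old values, 50.5 and 43.8, came from 30-month replicates 3 and 4 and lay close to the lowest young value. Tcf7 averaged 26.0 ± 14.7 CPM in old blood and 68.3 ± 13.4 CPM in young blood (SD, n = 9 and 5), and it fell by 1.44 ± 0.36 on the log2 scale (edgeR, adjusted p = 0.00626).

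Satb1 (ENSMUSG00000023927, chromosome 17, 51736187 to 51833290 on the minus strand) had 49.4, 59.4, 56.9, 58.0 and 64.3 CPM at 2 months. It ranged between 25.9 and 51.6 CPM at 9 months and between 19.1 and 46.8 CPM at 15 months. The libraries had 27.6, 26.0, 12.6 and 33.3 CPM at 24 months and 22.7, 28.3, 40.2, 32.9 and 14.04 CPM at 30 months. The lowest library, 24-month replicate 3, was also the lowest for Tcf7. Satb1 averaged 26.4 ± 8.97 CPM in old blood and 57.6 ± 5.39 CPM in young blood (SD, n = 9 and 5), and it fell by 1.14 ± 0.24 on the log2 scale (edgeR, adjusted p = 0.00167).

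Bach2 (ENSMUSG00000040270, chromosome 4, 32238804 to 32586108 on the plus strand) had 45.7, 44.2, 41.1, 34.5 and 43.1 CPM at 2 months. Its range was 21.9 to 47.7 CPM at 9 months and 21.4 to 44.0 CPM at 15 months. The libraries had 31.8, 23.8, 18.2 and 30.7 CPM at 24 months and 11.04, 15.9, 11.1, 11.5 and 14.1 CPM at 30 months. The 9- and 15-month libraries overlapped the young ones, while all 5 libraries of 30 months lay below every other of the 24 blood libraries used. Without TMM scaling the highest 30-month library lay above the lowest libraries of 15 and 24 months. Bach2 averaged 18.7 ± 8.21 CPM in old blood and 41.7 ± 4.36 CPM in young blood (SD, n = 9 and 5), and it fell by 1.20 ± 0.17 on the log2 scale (edgeR, adjusted p = 5.32e-05).

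Id3 (ENSMUSG00000007872, chromosome 4, 136143497 to 136145755 on the plus strand) had 24.7, 22.0, 21.8, 21.7 and 19.4 CPM at 2 months. Its range was 10.2 to 21.2 CPM at 9 months and 13.9 to 20.7 CPM at 15 months. The libraries had 19.3, 17.5, 14.4 and 16.0 CPM at 24 months and 5.52, 6.04, 5.70, 5.04 and 7.28 CPM at 30 months. As for Bach2, every library of 30 months lay below every other of the 24 blood libraries used, with 10.2 CPM as their lowest value at the younger ages. How common this pattern of Bach2 and Id3 was among all genes tested was not counted. Id3 averaged 10.8 ± 5.90 CPM in old blood and 21.9 ± 1.85 CPM in young blood (SD, n = 9 and 5), and it fell by 1.14 ± 0.13 on the log2 scale (edgeR, adjusted p = 6.65e-06).

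**Figure D1:**
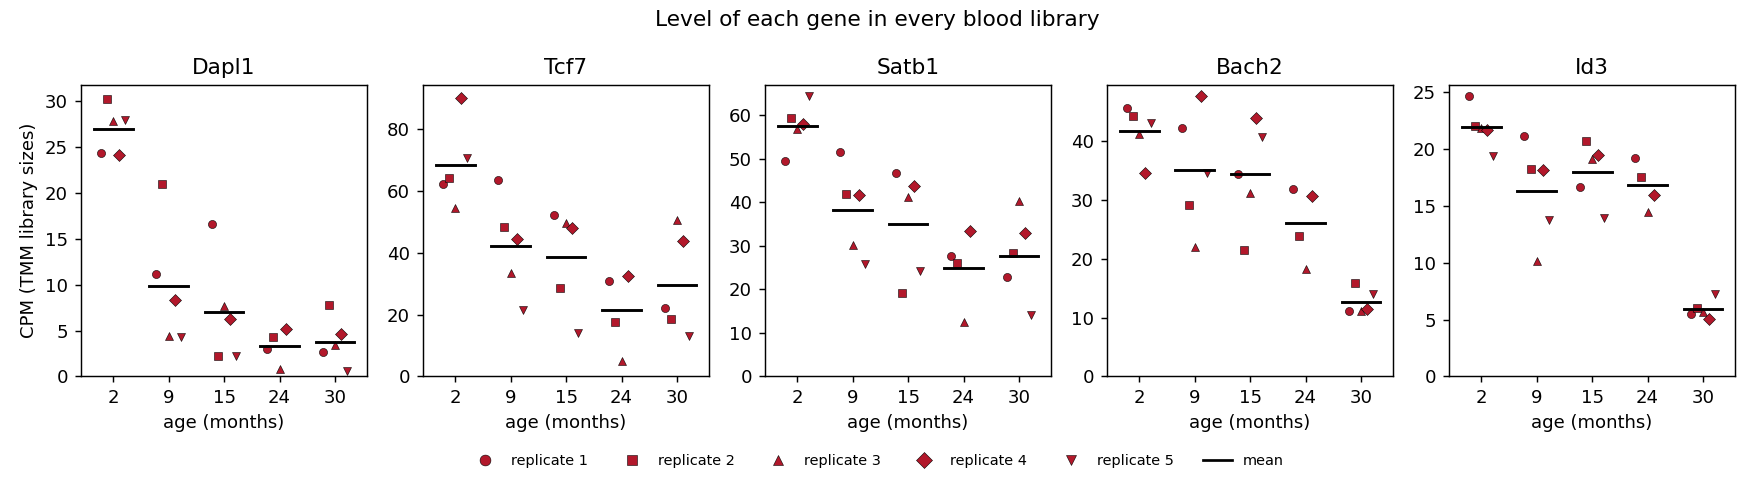
CPM of the 5 genes (y axis, each panel from 0) in every blood library against age in months (x axis), with a symbol per replicate and a line at the mean of each age. Dapl1, Tcf7 and Satb1 were low by 24 months and spread widely at 30 months. The 5 libraries of 30 months had 11.04 to 15.9 CPM of Bach2 and 5.04 to 7.28 CPM of Id3, below every other library shown.

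The 5 genes followed different courses over the ages. Over the steps between successive ages, none of the 5 was called from 2 to 9 months or from 15 to 24 months, where 0.095% and 0.53% of all genes tested were called by edgeR. At an unadjusted p under 0.05 stood 3 of them in the first step (Dapl1, Id3 and Satb1) and 0 in the other. From 9 to 15 months edgeR called 0 of 14730 genes, with 307 at an unadjusted p under 0.05. From 24 to 30 months Id3 fell by 1.51 ± 0.17 (adjusted p = 5.73e-05) and Bach2 by 1.04 ± 0.21 (adjusted p = 0.0163) on the log2 scale, where 1.11% of all genes were called lower. The step of Bach2 was no longer called without 24-month replicate 1 or 4 (adjusted p = 0.0811 and 0.0729), at a log2 fold change of -0.95 in both. Dapl1, Satb1 and Tcf7 had log2 fold changes of 0.19 ± 0.61, 0.15 ± 0.29 and 0.47 ± 0.45 in that step (adjusted p = 0.910, 0.845 and 0.655).

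Set against 2 months alone, the 24-month libraries gave a call for Dapl1 at a log2 fold change of -3.02 ± 0.64, for Tcf7 at -1.67 ± 0.46 and for Satb1 at -1.21 ± 0.30 (edgeR, adjusted p = 0.00500, 0.0308 and 0.0152), where 2.6% of all genes were called lower. At the same age Bach2 had -0.68 ± 0.21 and Id3 had -0.38 ± 0.17 (adjusted p = 0.0594 and 0.171). At 30 months against 2 months all 5 genes were called, with Id3 at -1.89 ± 0.16 and Bach2 at -1.72 ± 0.21, where 10.6% of all genes were called lower. The test over all 5 ages called Id3, Bach2, Dapl1 and Satb1 (adjusted p = 3.05e-06, 5.93e-05, 0.00176 and 0.0177) but not Tcf7 (adjusted p = 0.0591), with 17.9% of all genes called.

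**Figure D2:**
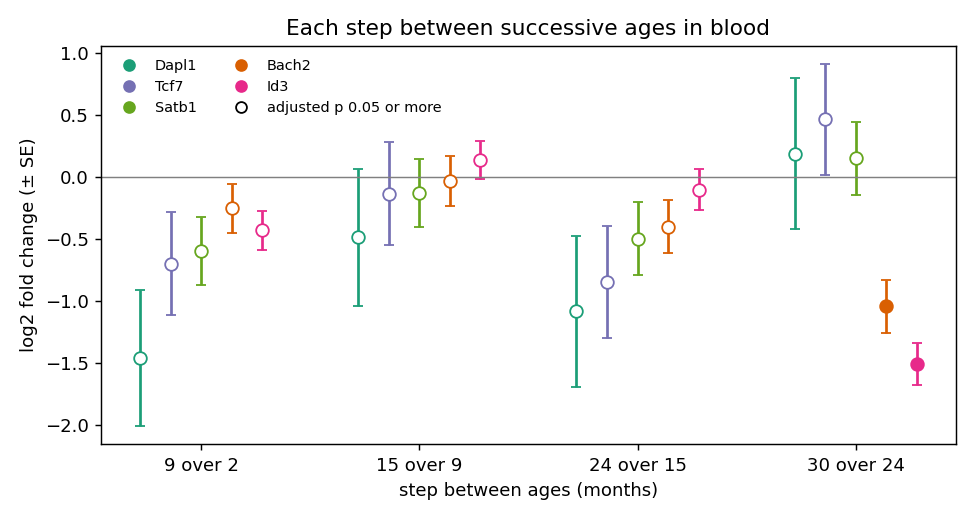
Log2 fold change with its SE (y axis) of the 5 genes for the 4 steps between successive ages in blood (x axis, older over younger), with filled points for an adjusted p under 0.05. The filled points are Bach2 at -1.04 and Id3 at -1.51 from 24 to 30 months, and Dapl1 had its lowest value, -1.46, from 2 to 9 months without passing the test.

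Among themselves, Satb1, Tcf7 and Dapl1 varied together, seen over the 24 blood libraries after the mean of each age was subtracted from log2 CPM. Satb1 and Tcf7 had a Pearson r of 0.88 and Spearman rho of 0.92, Satb1 and Dapl1 0.85 and 0.82, and Tcf7 and Dapl1 0.69 and 0.65. With permutation within age and adjustment over the 10 pairs, these 3 pairs had p = 0.0003, 0.00095 and 0.00937 for r and 1e-04, 0.0012 and 0.0185 for rho, the value of 1e-04 resting on the smallest p the permutations can give. Without the 2 libraries farthest from the median, r was 0.82, 0.77 and 0.58. The 7 pairs with Bach2 or Id3 had r between 0.17 and 0.41 and adjusted permutation p between 0.222 and 0.456 for r. Bach2 with Id3 had r = 0.40 and rho = 0.33 and formed no pair by this test, and Bach2 with Satb1 had r = 0.41. CPM values of a library share its total and its scaling factor.

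The genes also differed in their relation to the summed CPM of other lists. With the sum of the 24 T cell genes, after age means were subtracted, Tcf7 had r = 0.91 (rho = 0.91), Satb1 0.78 (0.82) and Dapl1 0.62 (0.64), with adjusted permutation p = 1e-04, 0.00123 and 0.0283 for r over 10 relations. Bach2 and Id3 had r = 0.0065 (rho = -0.04) and 0.24 (0.23) with that sum (adjusted permutation p = 0.978 and 0.398). With the sum of the 18 B cell genes Bach2 had r = 0.70 (rho = 0.74, adjusted permutation p = 0.00123) and Id3 had r = 0.44 (rho = 0.34, adjusted permutation p = 0.116), while the other 3 had r between -0.13 and 0.015 (rho between -0.05 and 0.16, adjusted permutation p of 0.879 to 0.978). Without the 2 libraries farthest from the median of the sum, r was 0.91, 0.77 and 0.64 for Tcf7, Satb1 and Dapl1 with T cell genes, and 0.76 and 0.52 for Bach2 and Id3 with B cell genes. Dapl1, Tcf7 and Satb1 thus varied with the T cell genes of the blood, and Bach2 varied with its B cell genes, which goes against the name naive T cell genes for Bach2 in whole blood. Id3 passed neither test. The sum of T cell genes does not set naive T cells apart from other T cells.

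The genes most alike in level were sought by Pearson r of log2 CPM over the 24 blood libraries among 9295 genes, as a description with no test. Among the genes nearest to Tcf7 were Nsg2 (r = 0.97) and Bcl11b (0.95), a factor of T lineage commitment. Satb1 was nearest to Lef1 (0.95), the paralogue and partner of Tcf7, then Rapgef6 (0.95) and Vipr1 (0.95), a receptor for vasoactive intestinal peptide. Dapl1 was nearest to Lef1 (0.94), Satb1 (0.93) and Peli1 (0.91), a ubiquitin ligase. Bach2 was nearest to Kmo (0.97), Xkrx (0.97) and Brwd1 (0.97), and Id3 to Otud1 (0.94), Strbp (0.91) and S1pr1 (0.90), the receptor by which lymphocytes leave lymphoid organs.

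After age means were subtracted, the genes nearest to Tcf7 included Apol7b (r = 0.98) and Apol7e (0.95). Satb1 was nearest to Hs3st3b1 (0.94), Tespa1 (0.93), an adaptor of T cell receptor signalling, and Lef1 (0.91). Dapl1 was nearest to Pde3b (0.87), Tespa1 (0.86) and Zc4h2 (0.86). Bach2 was nearest to Snx5 (0.91), Prkcb (0.91), the protein kinase C isoform of B cell receptor signalling, and Bank1 (0.88), a B cell scaffold. Id3 was nearest to S1pr1 (0.80), Snx25 (0.80) and Otud1 (0.80).

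The promoters of the genes were searched for short motifs of factors used in blood cells, and the 3 windows with a match are shown. RefSeq gave promoter windows of 300 bases (250 before to 50 after a start, GRCm38.p6) for all 5 genes, 10 windows in all. The letters searched were CTTTGAT for TCF/LEF factors, TGTTTAC for FOXO factors, CACTTCC for ETS factors, CCACACCC for KLF factors, TGACTCA for AP-1 and AGATAAG for GATA factors, on both strands, and no match overlapped another. They occur in 3.73%, 3.65%, 11.004%, 3.56%, 5.20% and 3.04% of all 32851 promoter windows. Windows of Tcf7, Satb1 and Dapl1 held matches, shown here in capitals, and those of Bach2 and Id3 held none of these letters. Satb1 had 5 windows and Tcf7 2, while Bach2, Id3 and Dapl1 had 1 each, so the genes were not searched over equal lengths. The share of all windows with any of these motifs was not counted, and the split between the genes is a description.
Dapl1, chr2:59484403-59484702, plus strand: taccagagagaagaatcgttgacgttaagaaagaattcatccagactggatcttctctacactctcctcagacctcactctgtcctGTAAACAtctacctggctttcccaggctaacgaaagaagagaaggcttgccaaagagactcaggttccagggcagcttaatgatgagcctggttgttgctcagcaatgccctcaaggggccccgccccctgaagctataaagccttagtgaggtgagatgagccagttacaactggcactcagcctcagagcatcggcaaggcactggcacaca
Tcf7, chr11:52282546-52282845, minus strand: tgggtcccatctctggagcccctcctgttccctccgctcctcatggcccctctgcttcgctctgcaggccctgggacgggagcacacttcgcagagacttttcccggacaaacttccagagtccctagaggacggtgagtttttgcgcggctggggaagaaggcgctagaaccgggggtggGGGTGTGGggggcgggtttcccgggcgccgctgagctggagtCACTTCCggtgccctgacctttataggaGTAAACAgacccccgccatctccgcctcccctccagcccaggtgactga
Satb1, chr17:51826539-51826838, minus strand: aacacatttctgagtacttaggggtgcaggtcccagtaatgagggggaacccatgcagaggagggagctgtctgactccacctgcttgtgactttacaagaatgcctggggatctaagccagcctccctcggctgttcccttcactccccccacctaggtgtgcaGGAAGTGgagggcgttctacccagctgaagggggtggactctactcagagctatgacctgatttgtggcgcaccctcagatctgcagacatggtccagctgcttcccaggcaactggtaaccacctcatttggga
The capitals of Dapl1 mark a FOXO match 164 bases before the start. Those of this Tcf7 window, which is the downstream of its 2 windows, mark a KLF match 69 bases before, an ETS match 27 bases before and a FOXO match 1 base after the start. The window of Satb1, 1 of its 5, has an ETS match 85 bases before the start. A FOXO match in windows of both Dapl1 and Tcf7 is a description of their letters and no sign of binding.

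Per length of message the genes stood in another order than by CPM. RPKM (reads per kilobase of annotated exon and 1000000 reads) was recomputed from the counts and library totals, without the TMM scaling used for CPM. At 2 months its median in blood was 35.5 for Dapl1, 23.7 for Tcf7, 10.3 for Id3, 3.58 for Bach2 and 2.60 for Satb1. The ranges of Dapl1 (27.01 to 47.6) and Tcf7 (17.8 to 29.2) overlapped, as did those of Bach2 (2.96 to 4.75) and Satb1 (1.95 to 3.33), while the range of Id3 (9.56 to 13.1) was separate. At 30 months the medians were 5.72 for Dapl1, 6.05 for Tcf7, 3.59 for Id3, 1.37 for Bach2 and 1.27 for Satb1. Tcf7 (5.11 to 24.9) then lay above Id3 (2.14 to 4.198), Bach2 (0.772 to 1.73) and Satb1 (0.752 to 2.58), and Dapl1 (0.867 to 10.1) overlapped all the others. Satb1 has the longest union of annotated exons, 19027 bases, against 679 bases for Dapl1, so these RPKM values are approximate. On this unscaled measure, 24-month libraries reached 17.3 for Id3 and 5.15 for Bach2, above their ranges at 2 months. The highest 30-month values of Tcf7 (24.9) and Satb1 (2.58) lay within their ranges at 2 months. Ages therefore compare differently in RPKM and in CPM.

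Other naive T cell genes were examined next, and the gene lists used here were chosen with earlier results of these data known. Of 15 naive T cell genes tested, 9 fell, 0 rose and 6 were not called in old against young blood, where 8.91% of all genes were called lower. Their median log2 fold change was -0.83. The list is not particular to T cells, as its summed CPM had a median of 1142 in blood, 1497 in liver and 1111 in brain. The T cell list had medians of 694, 39.0 and 629 in the same order. Igfbp4, which marks naive T cells in mice, averaged 3.89 ± 3.06 CPM in old blood and 42.0 ± 10.5 CPM in young blood (SD, n = 9 and 5), a fold change of -3.52 ± 0.47 on the log2 scale (edgeR, adjusted p = 2.32e-05). Lef1 had -2.28 ± 0.37 and the lymph node homing receptor Ccr7 had -1.53 ± 0.25, while Il7r (-0.36 ± 0.37) and Klf2 (0.28 ± 0.16) were among the 6 not called. Of 24 T cell genes 14 fell and 0 rose, with a median of -0.82. Cd4, the coreceptor of helper T cells, averaged 7.03 ± 3.21 CPM in old blood and 26.2 ± 6.57 CPM in young blood (SD, n = 9 and 5), a log2 fold change of -1.91 ± 0.24 (edgeR, adjusted p = 1.21e-05), while Cd8a, the coreceptor of cytotoxic T cells, had -0.52 ± 0.34 and was not called.

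Genes of effector and memory T cells moved in both directions. Of 25, 10 rose and 4 fell, with a median of 0.54. Of all genes tested, 12.7% were called higher and 8.91% lower in old blood, which is the background for all lists of this paragraph. Cxcr3, a chemokine receptor of activated T cells, averaged 12.1 ± 5.72 CPM in old blood and 4.71 ± 0.481 CPM in young blood (SD, n = 9 and 5), a log2 fold change of 1.27 ± 0.24 (edgeR, adjusted p = 0.000697). The granzyme gene Gzma was lower, with 39.7 ± 19.1 CPM in old blood and 252.2 ± 40.3 CPM in young blood (SD, n = 9 and 5), at -2.68 ± 0.31 (edgeR, adjusted p = 5.40e-06). The genes that fell were Gzma, Prf1, Klrg1 and Ifng, which natural killer (NK) cells use as well. Of 9 NK cell genes 8 fell, with Klrb1c at 11.5 ± 4.68 CPM in old blood and 61.6 ± 8.79 CPM in young blood (SD, n = 9 and 5). The part of NK cells in the values of the effector and memory list was not tested. Of 9 genes of regulatory T cells 6 fell and 1 rose, with Itgae at -1.87 ± 0.23 and Ctla4, an inhibitory receptor of T cells, at 2.46 ± 0.50.

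Of 17 partners and paralogues of the 5 genes tested, 4 rose, 3 fell and 10 were not called, with a median of 0.17, where 12.7% of all genes were called higher and 8.91% lower. Bach1, the paralogue of Bach2 and a repressor of haem-regulated genes, rose by 0.87 ± 0.20 on the log2 scale, with 34.4 ± 12.3 CPM in old blood and 17.9 ± 1.38 CPM in young blood (SD, n = 9 and 5). Prdm1, which encodes the factor Blimp-1 and is repressed by Bach2, rose by 0.63 ± 0.19, and Mafg, which encodes a small Maf partner of Bach proteins, fell by 0.62 ± 0.20. Of the paralogues of Id3, Id1 rose by 1.09 ± 0.29. Of the E proteins that Id3 binds, Tcf4 rose by 0.54 ± 0.18 and Tcf12 fell by 0.48 ± 0.14. Lef1, the paralogue of Tcf7, fell as given above. The adjusted p of these calls ran between 0.000185 for Lef1 and 0.0333 for Tcf4, and the calls of Tcf4, Mafg and Prdm1 were lost in 7, 4 and 1 of 24 fits without a single library. With the summed neutrophil genes as a covariate Bach1 (0.38), Id1 (0.34), Prdm1 (0.45) and Tcf12 (-0.46) were no longer called (edgeR, adjusted p = 0.103, 0.328, 0.180 and 0.0921), and with 24 months alone the same 4 and Mafg were not called (adjusted p of 0.103 to 0.264). Over 13 such settings Mafg lost its call in 6 and Tcf4 in 4, while Lef1 lost it in 0.

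Summed over the lists, the cell types of blood shifted with age beside the 5 genes, and their part in the result was not tested. The T cell genes summed to 954 to 1045 CPM at 2 months, 570 to 778 at 9, 396 to 788 at 15, 323.6 to 640 at 24 and 491 to 1210 CPM at 30 months. The B cell genes summed to 4049 to 5550 CPM at 2 months, 2993 to 6066 at 9, 2830 to 5371 at 15, 4413 to 5866 at 24 and 1435 to 3914 CPM at 30 months. The step from 24 to 30 months, where Bach2 and Id3 fell, was thus also a step of B cell genes. Of these, 12 of 18 fell and 0 rose there, where 1.11% of all genes were called lower. Their median log2 fold change was -1.23, against 0.027 over all genes tested. Of the 24 T cell genes 0 were called in that step by edgeR, with 17 at an unadjusted p under 0.05, and their median was 0.72. In 30-month replicate 5 the B cell genes summed to 3914 CPM, within the range of the younger ages. Bach2 had 14.1 and Id3 7.28 CPM there, below all libraries of the younger ages among the 24 used. This is a single library, and the part of B cells in these values was not tested.

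Most genes of myeloid cells moved the other way. Of 15 neutrophil genes 9 rose, 0 fell and the median was 1.20, with Trem1 at 21.4 ± 10.7 CPM in old blood and 6.95 ± 1.31 CPM in young blood (SD, n = 9 and 5). The 6 not called were split (edgeR, adjusted p of 0.0644 to 0.183). Camp, Ngp and Ltf had log2 fold changes of -2.28 ± 0.92, -1.84 ± 0.83 and -1.82 ± 0.82. Lcn2, Ly6g and Il1r2 had 0.89 ± 0.47, 1.01 ± 0.46 and 0.82 ± 0.32. Of 12 monocyte genes 10 rose and 0 fell with a median of 1.11, led by F13a1 at 222.1 ± 77.8 CPM in old blood and 83.5 ± 19.99 CPM in young blood (SD, n = 9 and 5). Of 18 B cell genes 8 fell and 0 rose (median -0.59), where 8.91% of all genes were called lower, with Vpreb3 at -1.98 ± 0.27. Of 12 platelet genes 2 rose, a share near the 12.7% of all genes, and Gp1bb among them lost its call with 24 months alone and with the neutrophil covariate (edgeR, adjusted p = 0.0798 and 0.108). Of 12 erythroid genes 0 were called by edgeR, with 1 at an unadjusted p under 0.05. No erythroid, neutrophil, monocyte or platelet gene of the lists was at 0 in all blood libraries. With 24 months alone Trem1, Vpreb3 and Cxcr3 were not called (edgeR, adjusted p = 0.111, 0.0999 and 0.0502). With the summed neutrophil genes as a covariate Tcf7 was no longer called, at a log2 fold change of -1.31 (edgeR, adjusted p = 0.0683).

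**Figure D3:**
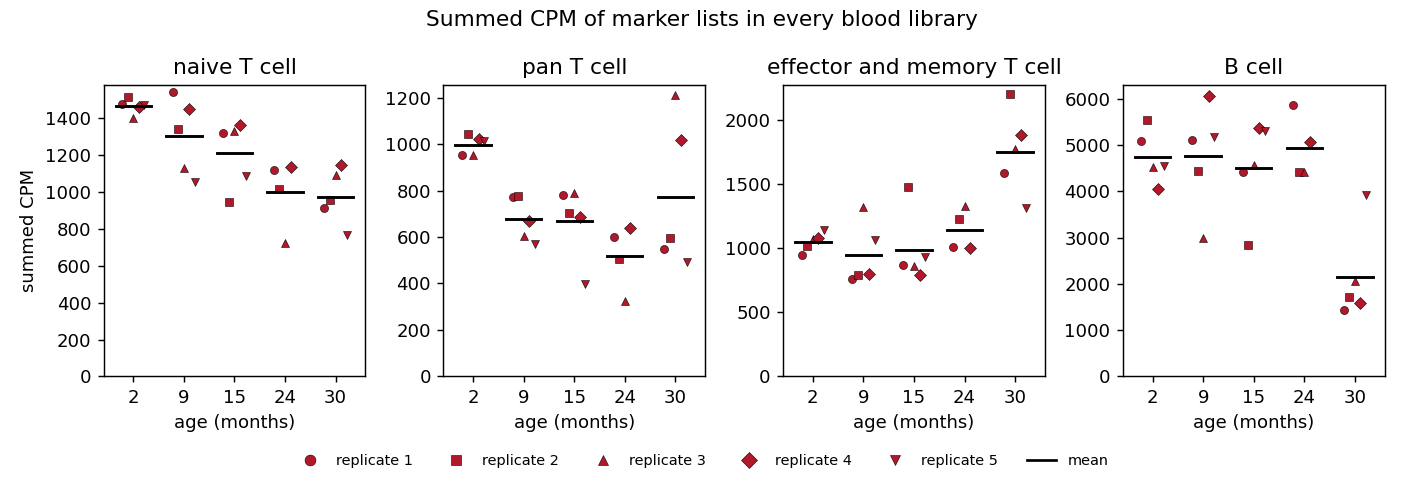
Summed CPM (y axis, each panel from 0) of the genes of 4 lists in every blood library against age in months (x axis), with a symbol per replicate and a line at the mean of each age. The sum of the naive T cell list was lower at 24 and 30 months than at 2 months in every library. That list is not particular to T cells, with a median sum of 1142 CPM in blood, 1497 CPM in liver and 1111 CPM in brain. T cell genes at 30 months ran up to 1210 CPM in replicate 3 and 1015 CPM in replicate 4. B cell genes were at 1435 to 3914 CPM at 30 months.

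Set against the T cell genes of the same library, Dapl1, Tcf7 and Satb1 were still lower in old blood. In this fit the summed count of the 24 T cell genes took the place of the library size, which moved the median log2 fold change of all genes to 0.78, and 1.22% of all genes were called lower. Per 1000 CPM of T cell genes, Dapl1 had 4.93, 8.55, 2.34 and 8.15 CPM at 24 months and 4.84, 13.03, 2.85, 4.51 and 1.18 CPM at 30 months, against 25.6, 29.0, 29.2, 23.7 and 27.5 CPM at 2 months. The old and young libraries did not overlap, and Dapl1 fell by 2.26 ± 0.42 on the log2 scale (edgeR, adjusted p = 0.000287). Tcf7 fell by 0.87 ± 0.25 (adjusted p = 0.00537) and Satb1 by 0.47 ± 0.20 (adjusted p = 0.0445). The call of Satb1 was lost in 15 of 24 fits without a single library (log2 fold change of -0.53 to -0.43 over the 24). Bach2 and Id3 had -0.42 ± 0.27 and -0.34 ± 0.23 and were not called (adjusted p = 0.164 and 0.186).

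The result for Tcf7 and Satb1 turned on which T cell genes were used. Against Cd3d, Cd3e and Cd3g alone, genes of the T cell receptor complex, the median of all genes was 1.40 and 0.455% of genes were called lower. In that fit Dapl1 fell by 1.83 ± 0.37 on the log2 scale (edgeR, adjusted p = 0.000151), while Tcf7 had -0.40 ± 0.30, Satb1 0.049 ± 0.30, Bach2 0.18 ± 0.36 and Id3 0.29 ± 0.34, with adjusted p of 0.203 to 0.875. Against the 18 B cell genes, with a median of 0.61 over all genes and 1.5% of genes called lower, Dapl1 fell by 2.23 ± 0.53, Bach2 by 0.58 ± 0.19 and Id3 by 0.54 ± 0.21 (edgeR, adjusted p = 0.00383, 0.0209 and 0.0446). Tcf7 and Satb1 had -0.83 ± 0.39 and -0.50 ± 0.29 in that fit (adjusted p = 0.0809 and 0.149). Dapl1 was the gene of the 5 that was called under all 3 scalings.

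Replicates 3 and 4 of 30 months showed this separation within a library, and the following genes were chosen after their values were seen. Their T cell genes summed to 1210 and 1015 CPM, against 954 to 1045 CPM at 2 months. Cd8a was at 77.7 and 79.1 CPM in them, against 38.4 to 48.7 CPM at 2 months, and the chemokine gene Ccl5 of effector and memory T cells was at 385 and 280 CPM, against 53.0 to 76.0 CPM. Tcf7 had 50.5 and 43.8 CPM there, but Dapl1 had 3.44 and 4.58 CPM, in the range of the other old libraries, and Igfbp4 had 0.911 and 2.15 CPM, the first being its lowest value in blood. Satb1 had 40.2 and 32.9 CPM. Tcf7 and Satb1 thus did not stand with Igfbp4 in these libraries, but Igfbp4 alone does not settle whether the name naive T cell genes holds for them. From 24 to 30 months 0 of the 15 naive T cell genes were called by edgeR, with a median log2 fold change of 0.19. Igfbp4 had -1.34 ± 0.59 and Nsg2 0.67 ± 0.42 in that step. Cd4 had 3.54 and 6.34 CPM in replicates 3 and 4 of 30 months, against 20.5 to 36.9 CPM at 2 months. Without these 2 libraries all 5 genes were still called in old against young blood, with Tcf7 at -1.81 and Satb1 at -1.33 (edgeR, adjusted p = 0.00107 and 0.000625), an alternative chosen after seeing the data.

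**Figure D4:**
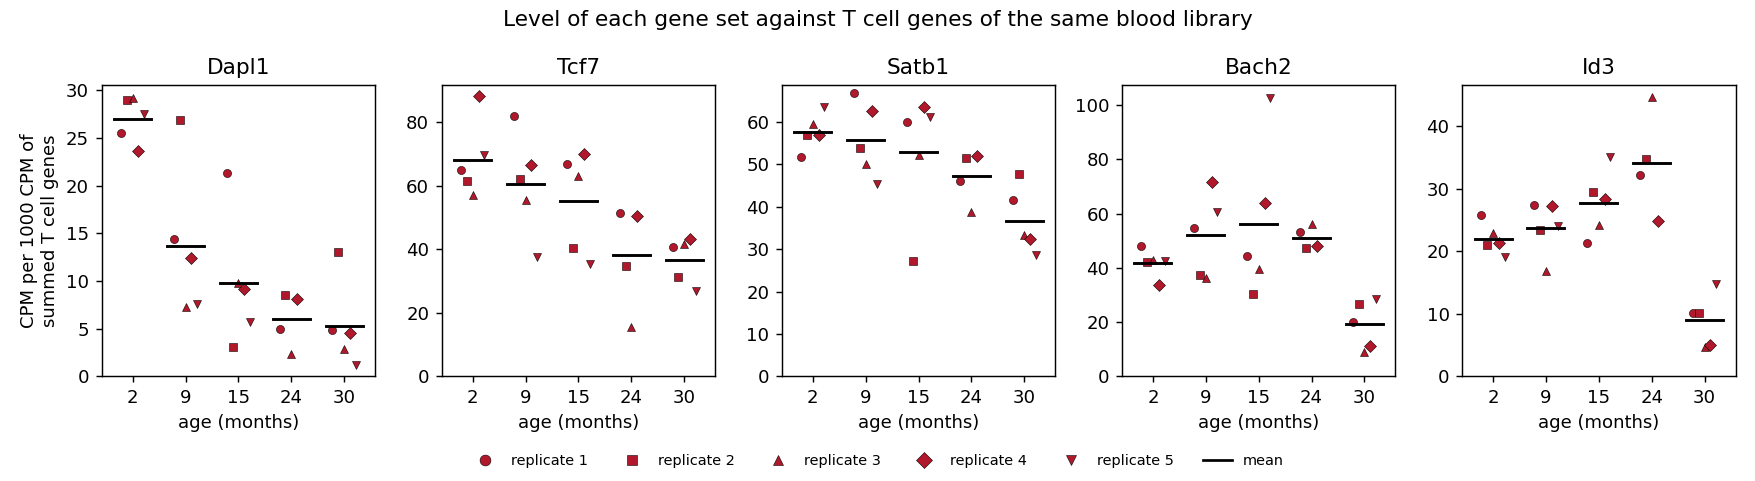
CPM of the 5 genes per 1000 CPM of summed T cell genes (y axis, each panel from 0) in every blood library against age in months (x axis), with a symbol per replicate and a line at the mean of each age. Dapl1 was at 1.18 to 13.03 at 24 and 30 months, below the 23.7 to 29.2 of the libraries of 2 months, while Bach2 and Id3 were lowest at 30 months, at 9.16 to 28.6 and 4.71 to 14.8.

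In skin the genes showed another pattern, and 4 of the 5 were called there, where 43.9% of all genes tested were called. Tcf7 had 14.1, 25.8, 10.1, 9.00 and 9.60 CPM at 24 months and 9.98, 8.82, 14.1, 5.94 and 11.3 CPM at 30 months, against 6.66, 52.1, 55.6, 48.6 and 28.2 CPM at 2 months. It fell by 1.703 ± 0.39 on the log2 scale (edgeR, adjusted p = 0.00275). Replicate 1 of 2 months stood with the old libraries, and the groups otherwise did not overlap. Satb1 rose by 1.17 ± 0.34 (adjusted p = 0.0104), with 69.1, 32.9, 66.9, 84.4 and 67.9 CPM at 24 months and 106, 79.1, 54.2, 87.7 and 71.7 CPM at 30 months, against 84.0, 20.6, 16.9, 15.7 and 22.2 CPM at 2 months. Here too replicate 1 of 2 months lay among the old libraries, and without it Satb1 had 1.91 and Tcf7 -1.99.

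Id3 fell in skin by 0.75 ± 0.19 on the log2 scale (edgeR, adjusted p = 0.00472), with 43.1 to 94.1 CPM in old skin and 44.2 to 118 CPM in young skin. The test over all 5 ages called Tcf7 alone of the 5 in skin (adjusted p = 0.0367), with 18.2% of all genes called. Bach2 fell by 0.82 ± 0.30 (edgeR, adjusted p = 0.0337), with 6.28 to 16.3 CPM in old skin and 6.39 to 26.9 CPM in young skin, a call lost in 5 of 15 fits without a single library and with limma voom (adjusted p = 0.0697). Dapl1 was far higher in skin than in blood and was not called, at 133 to 274 CPM in old skin and 166 to 237 CPM in young skin (-0.06 ± 0.16 on the log2 scale, adjusted p = 0.781). T cell genes summed to 168 to 285 CPM in old skin and 105 to 186 CPM in young skin, and B cell genes to 142 to 1402 CPM in old skin and 69.1 to 191 CPM in young skin. Their part in the skin values was not tested.

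In liver none of the 4 genes tested was called in old against young, where 14.3% of all genes were, and 3 of them (Id3, Satb1 and Tcf7) had an unadjusted p under 0.05. Neither edgeR nor limma voom gave a call in that comparison. At 30 months alone against 2 months Satb1 was called higher (1.61 ± 0.47 on the log2 scale, edgeR, adjusted p = 0.0317), where 8.12% of all genes were called higher. The test over all 5 ages called all 4 (edgeR, adjusted p of 0.0198 to 0.0493), where 25.4% of all genes were called. Dapl1 had at most 0.172 CPM in any liver library and was at 0 in 4 of 24, and it did not pass the filter on low counts. Satb1 was at 1.11 to 9.04 CPM in old liver and 0.564 to 1.43 CPM in young liver (1.25 ± 0.43 on the log2 scale, edgeR, adjusted p = 0.0547), and it was called with the added library of the separate table (adjusted p = 0.0216) and without 24-month replicate 5, 30-month replicate 3 or 30-month replicate 5 (adjusted p = 0.0406, 0.0402 and 0.0340). Tcf7 (0.75 ± 0.31), Id3 (0.83 ± 0.32) and Bach2 (0.24 ± 0.22) were not called (adjusted p = 0.103, 0.0814 and 0.510), though Id3 was called without 24-month replicate 5 (0.92, adjusted p = 0.0392). Replicate 2 of 30 months had the highest Tcf7, at 20.4 CPM, and the highest Satb1, at 9.04 CPM, and its T cell genes summed to 312 CPM against 36.7 to 94.9 CPM in the other 4 libraries of that age. Id3 rose in liver by 1.46 ± 0.36 from 2 to 9 months (edgeR, adjusted p = 0.0392, with 0.637% of all genes called higher), at 74.8 to 140 CPM at 9 months and 19.97 to 58.6 CPM at 2 months.

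In brain none of the 5 was called by edgeR or limma voom, where 7.98% of all genes were called by edgeR, and 1 of the 5 (Tcf7) had an unadjusted p under 0.05. Satb1 had its highest median CPM of the 4 tissues there, at 83.5 to 131 CPM in old brain and 96.4 to 124 CPM in young brain, and its log2 fold change was -0.03 ± 0.06 (adjusted p = 0.893). Bach2 was at 10.4 to 16.2 CPM in old brain and 11.4 to 17.3 CPM in young brain (-0.07 ± 0.07). Id3 had -0.17 ± 0.11, Tcf7 0.24 ± 0.11 and Dapl1 0.32 ± 0.29, the last at 0.123 to 1.74 CPM in old brain and 0.264 to 0.625 CPM in young brain. CPM values were scaled within each tissue, so levels of different tissues are set side by side only roughly.

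The difference between tissues was tested in a joint fit of all libraries of the 4 tissues with limma voom and the animal as a block, as the change in blood minus the change in the other tissue. Against brain all 5 genes were called lower in blood, and against liver Tcf7, Id3, Satb1 and Bach2 were. Of all 21764 genes, 4.89% and 7.35% were called lower in these 2 comparisons, and 11.6% and 13.8% in either direction. The differences from brain ran from -0.93 ± 0.28 for Id3 to -3.37 ± 0.53 for Dapl1, and those from liver from -1.42 ± 0.33 for Bach2 to -2.22 ± 0.58 for Satb1. Dapl1 was under the count filter in liver, so no difference from liver is given for it. Against skin, where 25.2% of genes were called, Dapl1 at -3.14 ± 0.35 and Satb1 at -2.66 ± 0.30 were called (limma, adjusted p = 4.77e-11 and 5.85e-11). Bach2 at -0.47 ± 0.27, Id3 at -0.40 ± 0.30 and Tcf7 at -0.10 ± 0.42 were not (adjusted p = 0.192, 0.340 and 0.890). The change of Dapl1 and of Satb1 thus differed between blood and skin, with Satb1 called lower in old blood and higher in old skin.

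**Figure D5:**
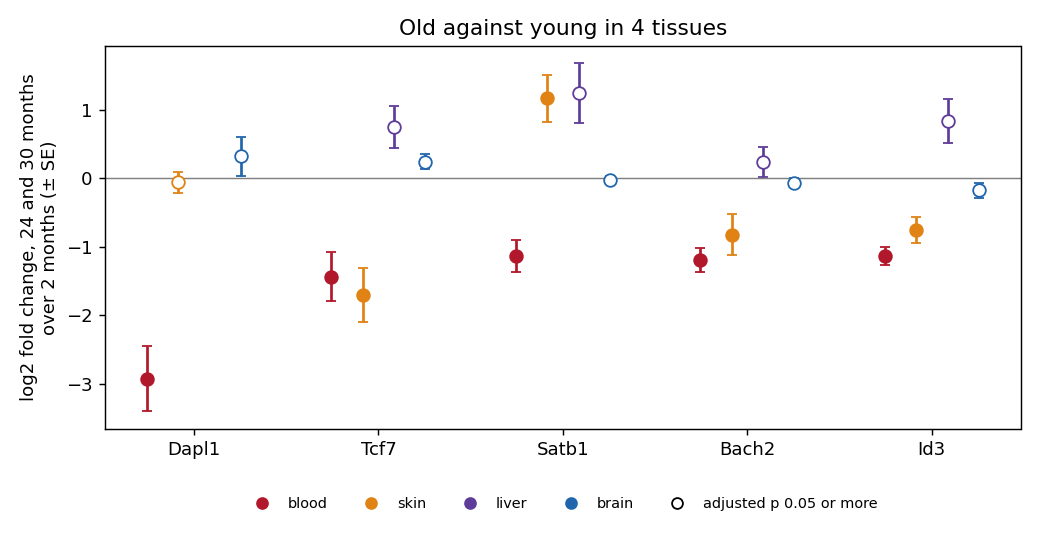
Log2 fold change with its SE (y axis) of each gene (x axis) for 24 and 30 months over 2 months in blood, skin, liver and brain, with filled points for an adjusted p under 0.05. All 5 blood points lie between -2.92 and -1.14, Satb1 in skin is at 1.17, and no brain or liver point is filled. Dapl1 has no liver point because it was near 0 there.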

How the data were processed

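The authors sequenced TruSeq libraries (50 nt, single end) and aligned the reads to GRCm38 with TopHat2 2.0.6. Reads were assigned to genes with HTSeq 0.5.3p9 and later featureCounts 1.4.3-p1, with bcl2fastq 1.8.3 and CASAVA 1.7 also named in the processing notes of the submitters. Whether strand was used in counting is not given in the sources used here. The deposited tables held whole-number counts per gene and RPKM calculated by the authors. The deposited RPKM implied gene lengths that were unrelated to annotated exon lengths (Spearman rho across 32533 genes = -0.00533). RPKM was therefore recomputed from counts with GENCODE vM21 exon lengths and library totals that had no TMM scaling. Of 37315 genes 35533 matched vM21, and 172 of 174 list genes were found, 3 of them under an older symbol.

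Counts were tested within each tissue with edgeR 4.0.16 in R 4.3.3 (filterByExpr, TMM, robust quasi-likelihood, age as a factor of 5 levels), with Benjamini-Hochberg adjustment over all genes tested and calls at 0.05. The SE is the log2 fold change divided by the square root of F. Tissues were compared with limma 3.58.1 (voom, animal as a block, consensus correlation 0.0180, since blood and skin share animals). Libraries are separate animals per the labels, apart from brain, where title codes recur, so brain p-values measure the spread between libraries. Correlations used log2(CPM + 0.5) and 100000 two-sided permutations within age (Python 3.11.15, numpy 2.4.6, pandas 2.3.3, scipy 1.17.1, matplotlib 3.10.9). Alternatives were RLE scaling, other filters, limma voom, DESeq2 1.42.0, single old ages, age as a number, covariates, other scaling lists, 3 libraries of a separate added table, and leaving out each library. The edgeR and limma voom fits were tested on simulated data for blood and for blood minus skin. The simulated counts had the same spread setting at every gene and did not copy the shifts of several cell types seen in blood.

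Genes named are the 5 genes, per list the called gene of smallest adjusted p in each direction, all called partners and paralogues, and the 3 genes of highest r to each gene averaging 1 or more in log2 CPM and carrying an ordinary symbol. Others named, Prf1, Klrg1, Ifng, Cd8a, Ccl5, Il7r, Klf2, Ccr7, Camp, Ngp, Ltf, Lcn2, Ly6g and Il1r2, were chosen after their values were seen. Some genes that the rule names are not reported here. The 5 genes and the lists were chosen with earlier results of these data known. Columns that were not used numbered 0.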

Additional observations from a re-analysis of the deposited data

Results flagged for a closer look

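In 100 groups of a gene, a tissue and an age, 9 held a library far from the rest, and chance gives about 1 in 20. In skin at 2 months replicate 1 had 84.0 CPM of Satb1, high for its group, and in skin at 24 months replicate 2 had 16.3 CPM of Bach2, also high. In liver at 30 months replicate 2 was high, with 9.04 CPM of Satb1 and 20.4 CPM of Tcf7. At 24 months liver replicate 2 had 126 CPM of Id3, and at 9 months liver replicate 1 had 0.114 CPM of Dapl1, a level near 0. In brain, 24-month replicate 6 was high for Bach2 (16.2 CPM), 30-month replicate 7 was high for Dapl1 (1.74 CPM) and 2-month replicate 7 was low for Tcf7 (1.90 CPM). None of these was a blood library.

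The change from young to old was not the same in blood as elsewhere, by the test of the difference in limma voom. The blood change minus the skin change was -2.66 for Satb1 and -3.14 for Dapl1. Minus the liver change it was -2.16 for Tcf7, -1.94 for Id3, -2.22 for Satb1 and -1.42 for Bach2. Minus the brain change it was -1.90 for Tcf7, -0.93 for Id3, -1.14 for Satb1, -3.37 for Dapl1 and -1.13 for Bach2.

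A blood library of 24 months that came in a separate table and entered the fits only as an alternative held all 5 genes above the limit of 3 counts, at low levels. It had 1.01 CPM of Bach2, 3.10 of Satb1, 3.14 of Tcf7, 0.570 of Dapl1 and 0.855 of Id3. Its T cell genes summed to 292 and its B cell genes to 223 on the same unscaled measure.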

How the results depend on the processing

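Of 65 values of the 5 genes in old against young blood under other settings 62 kept direction and side of the threshold, as did all 120 without a single library. The 3 exceptions lost the call: 24 months alone gave -0.68 for Bach2 and -0.38 for Id3, and the neutrophil covariate gave -1.31 for Tcf7. Genes called numbered 3176, against 969 (586 higher, 383 lower) with 24 months alone and 1699 (1015 higher, 684 lower) with that covariate. Without a single library 871 to 1419 genes were called lower, against 1312 with all, and the 871 came without 2-month replicate 1. Prkcb (0.030) and Bank1 (0.17) turned with 24 months alone, and Bank1 (0.048) with the covariate. Relative to Cd3d, Cd3e and Cd3g, Bach2 (0.18), Satb1 (0.049) and Id3 (0.29) turned and Tcf7 (-0.40) lost its call, and relative to B cell genes the values were -0.58, -0.50, -0.54 and -0.83 in that order. Satb1 relative to T cell genes lost its call with the added 24-month library (-0.59), without 30-month replicates 3 and 4 (-0.42, chosen after seeing the data) and in 15 fits without a single library (-0.53 to -0.43). Without a single library the step from 9 to 15 months ran from -0.16 to 0.12 for Bach2, -0.25 to 0.027 for Satb1 and -0.30 to 0.081 for Tcf7, and that from 24 to 30 months from -0.065 to 0.33 for Satb1 and -0.22 to 0.49 for Dapl1, none of them called. In skin Bach2 had -0.71 with limma voom and -1.05 to -0.65 without a single library. In liver Satb1 was called with the added library (1.30) and without 24-month replicate 5, 30-month replicate 3 or 30-month replicate 5 (0.82 to 1.46 over all fits without a single library), and Id3 without 24-month replicate 5 (0.61 to 1.09). Satb1 in brain ran from -0.053 to 0.00064. For blood minus skin, Tcf7 had 0.31 in edgeR with no animal block and 0.39 with 30 months alone, where Bach2 (-0.83) and Id3 (-0.99) were called, and for blood minus liver Dapl1, under the count filter in liver, had -3.19 in edgeR, which tests nothing about liver. The deposited RPKM at 2 months gave medians of 318 for Bach2, 19.9 for Satb1, 214 for Tcf7, 18.3 for Dapl1 and 151 for Id3, in another order than the recomputed values. With the title code as a replicate block in brain, Bach2 had -0.07, Satb1 -0.05, Tcf7 0.25, Dapl1 0.33 and Id3 -0.14, and the block changed no call. In blood, skin and liver no paired analysis was possible because animal numbers differ between ages. The causes of these changes were not tested. Low counts limit Dapl1 in liver and brain.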
